A study of Mus musculus with 8 samples.

Results

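The endoplasmic reticulum (ER) chaperone and unfolded protein response genes described here are 34 genes, chosen by symbol from the 52459 genes listed. They comprise 5 lumenal and membrane chaperones, 4 protein disulfide isomerases, 6 co-chaperones and secreted stress factors, 4 genes for the ER sensors and the transcription factor XBP1, 7 genes of ER-associated degradation, 4 genes of the CHOP branch and 4 subunits of the protein translocation site. All 34 passed the minimum mean of 10 normalized counts, as did 15419 genes in all. The 8 RNA libraries were made from regulatory T (Treg) cells of 2 genotypes, each with and without stimulation, with 2 libraries in each of the 4 groups. The cells were CD4+CD25hi cells sorted from spleens and lymph nodes, pooled over several healthy heterozygous female mice on the C57BL/6 strain, whose age is not given in the sources used here. YFPcre- cells served as WT, and YFPcre+ cells are labelled as homozygous for floxed Stim1 (fl/fl) and Stim2 (fl/fl) with Foxp3-YFPcre, called labelled Stim1/2-deficient below. Cre is expressed from the Foxp3 gene on the X chromosome, so that each female carries cells with and without it. The WT cells came from the same kind of mice and did not express Cre, and genotype therefore cannot be told apart from expression of the YFPcre allele. Cells were either left unstimulated or stimulated for 16 h with 1 µg/ml of anti-CD3 and anti-CD28. Unstimulated libraries were run on one sequencing lane and stimulated libraries on another. A difference between the lanes and one made by stimulation therefore cannot be told apart. No group is labelled as kept in culture for 16 h without antibody, so time in culture cannot be told apart from stimulation either. Unstimulated cells are also described below as at rest or resting. Both genotypes were present on each lane.

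STIM1 and STIM2 sense the calcium concentration in the ER lumen and open the plasma membrane channels through which the ER calcium store is refilled. Many ER chaperones bind calcium, and emptying of the store is a common laboratory trigger of the unfolded protein response. In this response 3 sensors in the ER membrane, ATF6, IRE1 (Ern1) and PERK (Eif2ak3), detect unfolded proteins. Cleaved ATF6 and the spliced form of XBP1 induce chaperones and degradation factors, whereas PERK slows translation and, through ATF4, induces CHOP (Ddit3) and its targets. The comparisons below ask whether these genes differed between WT and labelled Stim1/2-deficient Treg cells at rest and after stimulation. Gene counts hold no information on Xbp1 splicing, ATF6 cleavage or PERK phosphorylation.

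Promoters are shown for 4 genes on which the results below turn, since they carry the elements through which the response is read. Of the 34 genes, 28 were matched by symbol to RefSeq promoters on GRCm38.p6, each of 300 bases from 250 before to 50 after the start of the gene. Hyou1, Manf, Atf6, Derl1, Sec61a1 and Ssr2 were not matched. The ER stress response element (ERSE), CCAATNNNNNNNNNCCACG, is bound by NF-Y together with ATF6, and it was found on either strand in 9 of the 28 promoters, those of Hspa5, Hsp90b1, Calr, Canx, Pdia6, Dnajc3, Creld2, Syvn1 and Derl3. Among all 27025 genes with a promoter, 0.137% held it. ERSE-II, ATTGGNCCACG, was found in Dnajb11 and Herpud1 and in 0.0444% of all promoters. ERSE-II begins with the reverse complement of CCAAT, and both elements end in CCACG. The C/EBP-ATF response element (CARE), TGATGNAA, through which ATF4 acts, was found in Herpud1, Trib3 and Chac1 and in 4.51% of all promoters. Capitals mark these matches, which are matches of letters and not measured binding sites.

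Hspa5, with 1 ERSE, chr2:34771840-34772139 on the plus strand: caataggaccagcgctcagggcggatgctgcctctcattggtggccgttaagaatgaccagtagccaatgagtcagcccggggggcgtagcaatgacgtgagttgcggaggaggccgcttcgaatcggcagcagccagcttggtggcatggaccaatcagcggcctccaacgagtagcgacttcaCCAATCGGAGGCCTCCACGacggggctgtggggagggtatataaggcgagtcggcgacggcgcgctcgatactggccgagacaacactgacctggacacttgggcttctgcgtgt
Canx, with 1 ERSE, chr11:50325624-50325923 on the minus strand: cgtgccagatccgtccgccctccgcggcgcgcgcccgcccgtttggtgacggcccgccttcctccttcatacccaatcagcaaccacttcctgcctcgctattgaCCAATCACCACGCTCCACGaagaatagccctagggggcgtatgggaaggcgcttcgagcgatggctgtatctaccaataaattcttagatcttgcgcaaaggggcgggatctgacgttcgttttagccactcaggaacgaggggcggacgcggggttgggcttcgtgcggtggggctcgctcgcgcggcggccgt
Herpud1, with CARE in reverse followed by ERSE-II, chr8:94386179-94386478 on the plus strand: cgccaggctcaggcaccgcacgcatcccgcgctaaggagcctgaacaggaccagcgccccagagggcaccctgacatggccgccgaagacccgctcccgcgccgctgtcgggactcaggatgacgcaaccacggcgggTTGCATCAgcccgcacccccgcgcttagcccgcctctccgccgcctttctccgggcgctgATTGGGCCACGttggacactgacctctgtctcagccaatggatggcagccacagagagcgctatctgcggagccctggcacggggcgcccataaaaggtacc
Chac1, with CARE in reverse, chr2:119350992-119351291 on the plus strand: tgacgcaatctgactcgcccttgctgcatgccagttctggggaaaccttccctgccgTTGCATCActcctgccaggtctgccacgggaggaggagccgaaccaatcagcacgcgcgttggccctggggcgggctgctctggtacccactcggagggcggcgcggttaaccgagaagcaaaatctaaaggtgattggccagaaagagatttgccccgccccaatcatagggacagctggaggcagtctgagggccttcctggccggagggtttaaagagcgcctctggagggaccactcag

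The 4 promoters thus held either ERSE alone, CARE alone, or ERSE-II with CARE. No match of one element overlapped a match of another in these 4 windows.

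Between 11851853 and 16306540 reads per library were counted. Levels are given as normalized counts, reads per gene after division by a size factor of the library, and a single read is worth 0.759 to 1.48 of them. Foxp3, the defining Treg transcription factor, was present in every library, and the summed level of 6 Treg markers was 85605 and 91902 normalized counts in WT cells at rest against 40109 and 47805 in labelled Stim1/2-deficient cells at rest. After stimulation it was 94707 and 112665 against 67927 and 85817. The labels could not be checked from the Stim genes, since counts of whole genes do not separate the deleted exons. By other assays, the study reported that YFP+ Treg cells of such females lacked the calcium influx that follows emptying of the ER store. It also reported loss of Stim1 and Stim2 expression by RT-PCR in Treg cells of male mice. Stim1 did not pass the test in unstimulated cells (log2 fold change 0.44, adjusted p = 0.236 in limma), and nor did Stim2 (-0.15, adjusted p = 0.721 in limma). The summed level of 10 macrophage and myeloid markers was 445 and 467 in unstimulated WT libraries, and 9998 and 1651 in replicates 1 and 2 of unstimulated labelled Stim1/2-deficient cells. The 8 plasma cell markers, which matter here because plasma cells are rich in ER, summed to 7628 and 8873 in the former and to 18916 and 5620 in the latter, with the plasma cell gene Tnfrsf17 at 0 in both WT groups and in stimulated labelled cells. Ighm and Prdm1 made up most of the WT sums. Of the 7 tested markers, 4 lay higher in both labelled libraries at rest, Jchain, Mzb1, Igkc and Pou2af1. Only Prdm1 lay lower in both. Jchain, for example, had 1784 and 471 normalized counts in labelled replicates 1 and 2, against 38.9 and 72.4 in WT. The 8 B cell markers summed to 281 and 294 in unstimulated WT libraries and to 2690 and 581 in replicates 1 and 2 of unstimulated labelled cells. After stimulation, myeloid markers summed to 165 to 443, B cell markers to 180 to 1444 and plasma cell markers to 3152 to 8073 over the 4 libraries. Replicate 1 of unstimulated labelled Stim1/2-deficient cells thus stood apart in all 3 lists, and results in unstimulated cells are also given without it. The mitochondrial ribosomal RNA mt-Rnr2 took 19.6% and 20.1% of reads in unstimulated WT libraries, 22.1% and 13.4% in labelled replicates 1 and 2, and 9.78% to 13.6% after stimulation, so that labelled replicate 2 stood apart at rest in this share. The part of these other cells and of this share in the results was not tested.

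**Figure D1:**
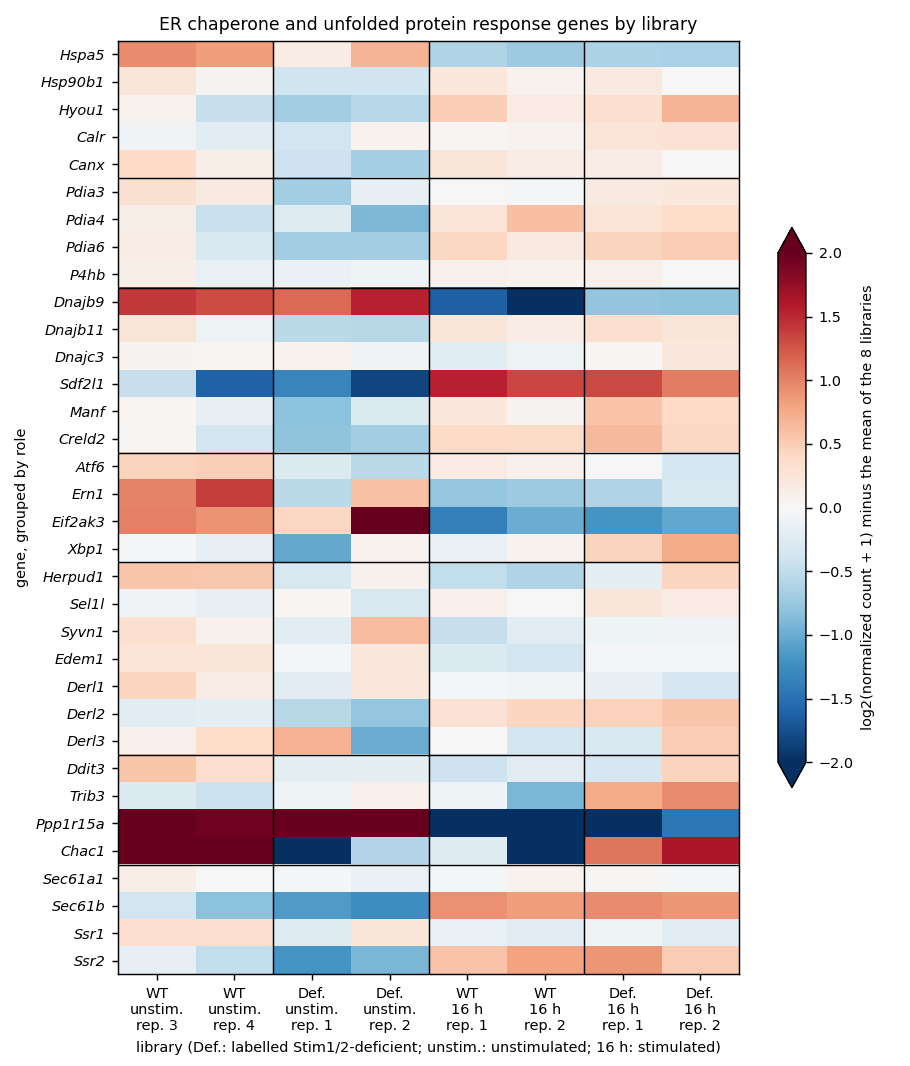
Level of each of the 34 genes in each of the 8 libraries, as log2(normalized count + 1) minus the mean of that gene over the 8 libraries, so that red is above and blue below the gene's own mean. Genes are grouped by role with horizontal lines, and vertical lines separate the 4 groups. In unstimulated labelled Stim1/2-deficient replicates 1 and 2, 7 and 13 of the 34 genes lay above their own mean, against 26 and 19 in unstimulated WT replicates 3 and 4.

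Unstimulated labelled Stim1/2-deficient Treg cells showed no gene of the 34 with a significantly higher level than WT, and 2 genes had a significantly lower level, Canx and Atf6. The median log2 fold change of the 34 genes was -0.45, against -0.01 over all tested genes, and 30 of 34 were below 0. When libraries were rescaled to equal totals or equal upper quartiles, the median of the 34 genes was -0.33 or -0.29 and that of all genes 0.11 or 0.15, so that the members lay 0.44 below the median of all genes each time. Genes were called at a limma adjusted p under 0.05 and more than 1.5-fold, and by this rule 3.35% of all tested genes were lower and 1.38% higher. The 2 of 34 members called lower lie near that background. At an unadjusted p under 0.05 and more than 1.5-fold, 10 members were lower and 0 higher, against 11.1% and 8.68% of all tested genes. In 20 of the 34 genes the 2 labelled libraries lay under the 2 WT libraries, and in 2 genes over them, against 27.1% and 26.5% of all tested genes. In bulk RNA, fewer cells of a type and less RNA per cell cannot be told apart.

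Canx encodes calnexin, the membrane-bound lectin chaperone that retains glycoproteins until they are folded. Its level at rest was 11392 and 9454 normalized counts in WT and 6457 and 5429 in labelled Stim1/2-deficient libraries. Neither labelled library thus reached either WT library, and the mean was 1.75-fold lower (log2 fold change -0.81, SE 0.18, adjusted p = 0.0337 in limma). The other chaperones with calcium-binding or ATPase activity were not called. Hspa5, encoding BiP, the abundant HSP70 of the ER and a standard readout of the unfolded protein response, had 35144 and 32693 normalized counts in WT against 20126 and 29199. The groups did not overlap, but the log2 fold change of -0.48 (SE 0.20, adjusted p = 0.192 in limma) became -0.22 without labelled replicate 1 and -0.75, then called, without labelled replicate 2. Where a library is left out, the group it leaves holds 1 library, which is assumed to vary like the other groups. Hsp90b1, encoding the HSP90 paralog GRP94, had 17490 and 15354 against 11221 and 11161 (log2 fold change -0.55, SE 0.17, adjusted p = 0.0926 in limma). Calr, encoding calreticulin, the soluble counterpart of calnexin, had 4370 and 3943 against 3515 and 4847, and the groups overlapped. Its log2 fold change was -0.01 (SE 0.19, adjusted p = 0.986 in limma), with a 95% interval from -0.43 to 0.41, and it turned positive at 0.11 and 0.15 with equal totals and equal upper quartiles. Hyou1, encoding the nucleotide exchange factor GRP170 that serves BiP, had 1271 and 882 against 743 and 815 and was not called.

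The protein disulfide isomerases form and rearrange disulfide bonds, and none of the 4 was called. Pdia3, which works with calnexin and calreticulin on glycoproteins, had 8577 and 7807 normalized counts in WT against 4277 and 6206 (log2 fold change -0.67, adjusted p = 0.0835 in limma). Pdia6 had 1170 and 861 against 653 and 652, without overlap (-0.62, adjusted p = 0.112 in limma). Pdia4 and P4hb had log2 fold changes of -0.41 and -0.09, and their libraries overlapped between genotypes. Among the co-chaperones, Dnajb11, a DNAJ partner of BiP, had 2465 and 1953 against 1448 and 1425 (-0.61, adjusted p = 0.0828 in limma). Dnajb9, a DNAJ protein induced through IRE1 and XBP1, and Dnajc3, a DNAJ protein known as P58IPK, had log2 fold changes of -0.03 and -0.05. Sdf2l1, Manf and Creld2, small lumenal or secreted factors, lay between -0.57 and -0.49. None of these 6 genes was called.

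Of the 3 sensors, limma called Atf6 and not Ern1 or Eif2ak3, edgeR called none of them, and DESeq2 called Atf6 and Ern1. Atf6 had 1538 and 1563 normalized counts in WT libraries at rest and 931 and 779 in labelled Stim1/2-deficient libraries. The difference was larger than that between libraries of 1 group, with a 1.82-fold lower mean (log2 fold change -0.86, SE 0.20, adjusted p = 0.0374 in limma). Ern1, encoding the kinase and RNase IRE1, had 888 and 1164 against 306 and 668 without overlap, and its log2 fold change of -1.17 (SE 0.34) did not pass the test (adjusted p = 0.0791 in limma). Eif2ak3, encoding PERK, had 1185 and 1095 against 780 and 2813, so that the 2 labelled libraries lay on either side of WT. The estimate of 0.38 on the log2 scale was not called (adjusted p = 0.679 in limma), and without labelled replicate 1 it was called higher. Xbp1 showed the same kind of split, with 1895 and 1722 normalized counts in WT and 948 and 2021 in labelled replicates 1 and 2. Its log2 fold change was -0.38 (SE 0.30, adjusted p = 0.501 in limma), and became 0.16 without labelled replicate 1 and -0.93, then called, without labelled replicate 2. For Eif2ak3 and Xbp1 the 1 library chosen therefore set the direction.

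ER-associated degradation draws misfolded proteins out of the ER for the proteasome, and none of its 7 genes was called in unstimulated cells. Herpud1, a small ubiquitin-like membrane protein of the complex and a sensitive target of the response, had 732 and 722 normalized counts in WT against 396 and 528. The groups did not overlap, with a log2 fold change of -0.67 (SE 0.26, adjusted p = 0.162 in limma). Derl2, one of the derlins of the retrotranslocation site, had 751 and 759 against 592 and 510 (-0.46, adjusted p = 0.187 in limma). Sel1l and Syvn1, the core of the main ubiquitin ligase of the ER, had log2 fold changes of -0.03 and 0.00, Edem1, a mannosidase-like factor, -0.16, Derl1 -0.29 and Derl3, at 8.01 to 28.3 normalized counts over its 4 unstimulated libraries, -0.38. In the CHOP branch, which is linked to cell death under lasting stress, Ddit3 itself had 407 and 350 against 246 and 244 (log2 fold change -0.62, SE 0.29, 95% interval -1.26 to 0.02, adjusted p = 0.242 in limma). Chac1, a glutathione-degrading enzyme induced through ATF4, had 46.4 and 48.8 normalized counts in WT and 1.05 and 6.68 in labelled libraries, the latter from 1 and 5 reads. The large log2 fold change of -3.61 rests on these few reads, had a standard error of 1.07 and did not pass the test (adjusted p = 0.0856 in limma), while DESeq2 called it. Trib3, a pseudokinase induced by CHOP, and Ppp1r15a, encoding GADD34, which restores translation, were the 2 genes in which the labelled libraries lay over those of WT. Trib3 had 18.4 and 16.2 normalized counts against 21.0 and 24.0, and Ppp1r15a 3507 and 3344 against 3796 and 4670, and neither was called (log2 fold changes 0.36 and 0.30, adjusted p = 0.745 and 0.50 in limma). At the translocation site, Sec61b and Ssr2 had log2 fold changes of -0.59 and -0.73, and Sec61a1 and Ssr1 of -0.15 and -0.34, none of them called.

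Without labelled replicate 1, the library richest in macrophage, B cell and plasma cell transcripts, Canx and Atf6 were still lower, and Eif2ak3 was added as higher. Without labelled replicate 2, 6 genes were lower, since Atf6 was lost and Hspa5, Pdia3, Ern1, Xbp1 and Ssr1 were added. Both calls were lost with equal totals, with equal upper quartiles, in a fit to the 4 unstimulated libraries alone, and when any 1 of the 4 WT libraries was left out. The 95% interval lay below a 1.5-fold increase for 29 of the 34 genes, and above a 1.5-fold decrease for 8.

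**Figure D2:**
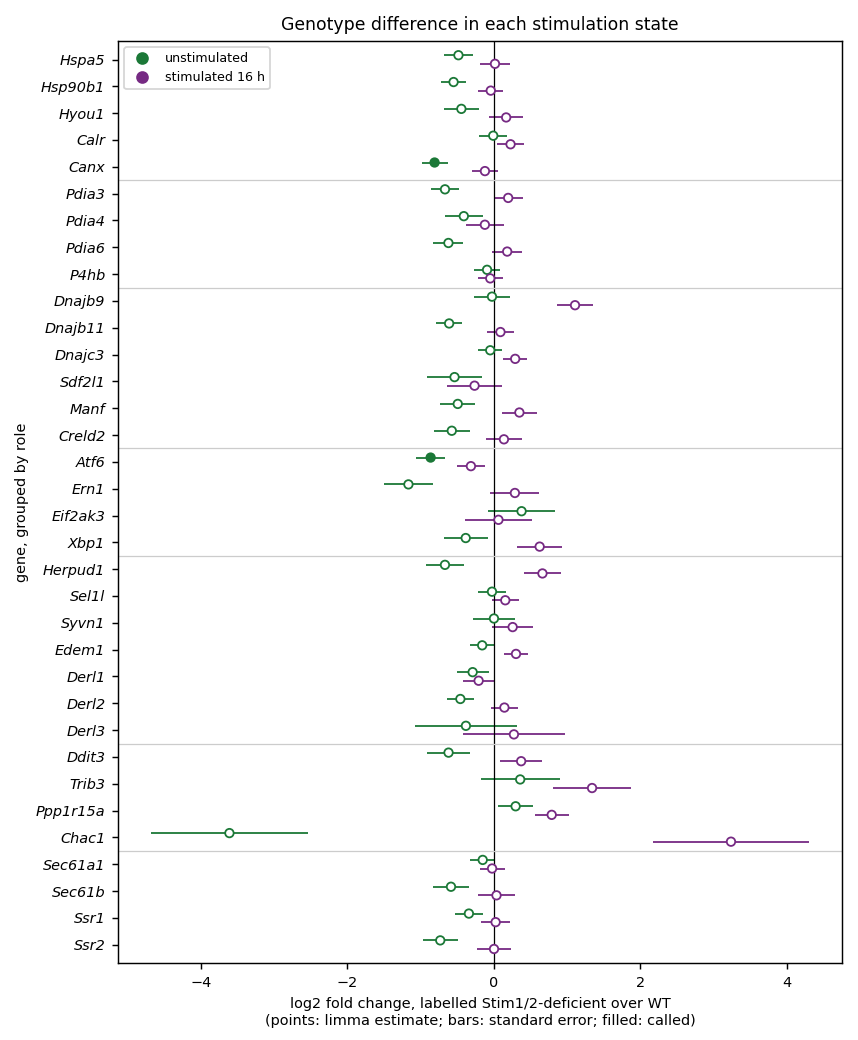
Genotype difference of each of the 34 genes, as the log2 fold change of labelled Stim1/2-deficient over WT libraries, in unstimulated cells (green) and after 16 h of stimulation (purple). Points are limma estimates, bars are standard errors, and filled points were called. The 2 filled points are Canx and Atf6 in unstimulated cells, and most green points lie to the left and most purple points slightly to the right of 0.

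After 16 h of stimulation, none of the 34 genes was called between the genotypes in either direction, against 0.11% of all tested genes lower and 0.162% higher. The median log2 fold change was 0.16, against 0.02 over all tested genes, and 26 of 34 genes were above 0. At an unadjusted p under 0.05 and more than 1.5-fold, 5 members were higher and 0 lower, against 5.6% and 6.95% of all tested genes. These were Dnajb9, Herpud1, Trib3, Ppp1r15a and Chac1. The groups did not overlap in 17 genes with higher and 4 with lower labelled libraries, against 24.3% and 23.1% of all tested genes, and the 4 were Canx, Sdf2l1, Atf6 and Derl1. On the same recovered reads, edgeR called 0 members and DESeq2 called 1, Dnajb9. Of all tested genes, edgeR called 0% lower and 0.0065% higher, and DESeq2 1.86% lower and 1.54% higher.

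Hspa5 and Hsp90b1 had near-equal levels in both genotypes after stimulation. Hspa5 had 12048 and 11027 normalized counts in WT against 11738 and 11569 in labelled Stim1/2-deficient libraries, and the libraries overlapped. The log2 fold change was 0.02 with a 95% interval from -0.43 to 0.46 (SE 0.20, adjusted p = 0.984 in limma). Hsp90b1 had 17023 and 15480 against 16730 and 14861, a log2 fold change of -0.04 with an interval from -0.42 to 0.33 (SE 0.17, adjusted p = 0.950 in limma). For both chaperones the interval lay within 1.5-fold in either direction. Calr had 4661 and 4814 against 5494 and 5608, without overlap, and a log2 fold change of 0.23 (SE 0.19, adjusted p = 0.650 in limma, 95% interval -0.19 to 0.65). Canx, lower at rest, had 10176 and 9575 against 9550 and 8622 (-0.12, adjusted p = 0.822 in limma), and Atf6 had 1270 and 1200 against 1119 and 882 (-0.31, adjusted p = 0.533 in limma). The protein disulfide isomerases lay between -0.12 and 0.20.

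Of the 5 genes with an unadjusted p under 0.05 and more than 1.5-fold, 3 belong to the CHOP branch, Trib3, Ppp1r15a and Chac1. All 4 genes of that branch had a log2 fold change above 0, with a median of 1.07, and none was called. Dnajb9 had 169 and 115 normalized counts in stimulated WT libraries and 305 and 301 in labelled Stim1/2-deficient libraries. That is a 2.16-fold higher mean with a log2 fold change of 1.11 (SE 0.25, adjusted p = 0.0832 in limma), at a level far below that of unstimulated cells. Herpud1 had 351 and 326 against 433 and 666 (0.66, SE 0.26, adjusted p = 0.279 in limma). Of the CHOP branch, Ppp1r15a had 140 and 159 against 210 and 318 (0.79, adjusted p = 0.161 in limma). Trib3 had 21.0 and 11.4 against 38.1 and 43.9 (1.34, adjusted p = 0.295 in limma). Both lay higher in each labelled library than in each WT library. Chac1 had 8.57 and 0 normalized counts in WT and 23.0 and 34.6 in labelled libraries (log2 fold change 3.24, SE 1.07, adjusted p = 0.201 in limma). The count of 0 in WT replicate 2 allows a level of up to 2.28 normalized counts, which covers counting error only. Ddit3, in contrast, overlapped between genotypes with 208 and 239 against 221 and 379 (log2 fold change 0.37, SE 0.29, 95% interval -0.27 to 1.01, adjusted p = 0.629 in limma). Its value was -0.02 without labelled replicate 2. Xbp1 had 1748 and 2017 against 2610 and 3220, without overlap (0.63, SE 0.30, 95% interval -0.05 to 1.30, adjusted p = 0.403 in limma).

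More of the 34 genes were called for stimulation than for genotype, and in both directions, as was the case over all tested genes. In WT cells 8 of the 34 genes fell and 3 rose, against 13.1% and 10.2% of all tested genes. In labelled Stim1/2-deficient cells 4 fell and 13 rose, against 12% and 13% of all tested genes. The 3 genes that rose in WT and the 4 that fell in labelled cells lie near these shares. The median log2 fold change was -0.11 in WT and 0.39 in labelled cells, against 0.01 and -0.03 over all tested genes. With equal totals these medians became 0.40 and 0.78 and those of all genes 0.52 and 0.35, so that the number of members that rose in WT depended on the scaling, 13 with equal totals. The 4 genes that fell in labelled cells were all among the 8 that fell in WT, which is 100% of the former and 50% of the latter. The 3 genes that rose in WT were all among the 13 of labelled cells, which is 100% and 23.1%. Stimulated and unstimulated libraries also differ in sequencing lane, and time in culture cannot be told apart from stimulation. The values in both genotypes are given side by side below, and the difference between them was tested as an interaction further on.

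Hspa5, Dnajb9, Eif2ak3 and Ppp1r15a fell in both genotypes. The largest change among them was that of Ppp1r15a, from 3507 and 3344 to 140 and 159 normalized counts in WT (22.8-fold lower, log2 fold change -4.51, SE 0.23, adjusted p = 1.65e-05 in limma) and from 3796 and 4670 to 210 and 318 in labelled cells (16.2-fold lower, -4.02, SE 0.23, adjusted p = 3.01e-05 in limma). Dnajb9 fell from 1409 and 1301 to 169 and 115 in WT (9.63-fold, -3.27, SE 0.25, adjusted p = 0.000118 in limma) and from 1152 and 1537 to 305 and 301 in labelled cells (4.39-fold, -2.13, SE 0.25, adjusted p = 0.000626 in limma). Both genes showed no overlap between resting and stimulated libraries. Eif2ak3 fell to 228 and 295 in WT (-2.13, SE 0.46, adjusted p = 0.00994 in limma) and to 257 and 285 in labelled cells (-2.45, SE 0.46, adjusted p = 0.00492 in limma), levels that overlapped between the genotypes. Its value in labelled cells was -3.37 without unstimulated labelled replicate 1 and -1.52 without replicate 2. Hspa5 fell to 12048 and 11027 in WT, 2.94-fold (-1.56, SE 0.20, adjusted p = 0.00125 in limma), and to 11738 and 11569 in labelled cells, 2.08-fold (-1.06, SE 0.20, adjusted p = 0.00513 in limma). BiP transcripts thus lay between 11027 and 12048 normalized counts in all 4 stimulated libraries. The fall of Hspa5 in labelled cells was not called in a fit to the 4 labelled libraries alone.

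Ern1, Herpud1, Edem1 and Chac1 fell in WT cells and did not pass the test in labelled cells. Ern1 fell from 888 and 1164 to 260 and 267 in WT (log2 fold change -1.94, SE 0.34, adjusted p = 0.00392 in limma), and had 306 and 668, then 292 and 355, in labelled cells (-0.49, adjusted p = 0.309 in limma). Herpud1 fell from 732 and 722 to 351 and 326 in WT (-1.10, SE 0.26, adjusted p = 0.0136 in limma), and had 396 and 528, then 433 and 666, in labelled cells (0.23, adjusted p = 0.536 in limma). In both genes the WT resting level was the highest of the 4 groups. Edem1 fell from 3527 and 3440 to 2373 and 2251 in WT (-0.59, SE 0.17, adjusted p = 0.0288 in limma), with a log2 fold change of -0.13 in labelled cells. Chac1 fell from 46.4 and 48.8 to 8.57 and 0 in WT (-3.97, SE 1.07, adjusted p = 0.0241 in limma), and went from 1.05 and 6.68 to 23.0 and 34.6 in labelled cells without passing the test (2.88, adjusted p = 0.0741 in limma). Without stimulated WT replicate 2 the value of Chac1 in WT was -2.34, and with replicate 1 left out instead it was -5.60. The calls of Eif2ak3, Herpud1 and Edem1 in WT were lost when any 1 of the 4 WT libraries was left out, that of Chac1 when any but stimulated replicate 1 was, and that of Ern1 without unstimulated replicate 4. The calls of Edem1 and Chac1 were also lost in edgeR and with no minimum on the mean. With equal totals the calls of Herpud1 and Edem1 were lost, with equal upper quartiles that of Edem1, and with a pseudocount of 0.1 that of Chac1.

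Sdf2l1, Sec61b and Ssr2 rose in both genotypes. Sdf2l1, a partner of the DNAJ co-chaperones of BiP, had 136 and 60.6 normalized counts in resting WT libraries and 549 and 475 after stimulation (5.57-fold, log2 fold change 2.48, SE 0.38, adjusted p = 0.00257 in limma), with 74.5 and 52.1, then 471 and 384, in labelled cells (6.74-fold, 2.75, SE 0.38, adjusted p = 0.00126 in limma). The translocon subunit gene Sec61b rose 2.79-fold in WT, from 187 and 137 to 462 and 434 (log2 fold change 1.48, SE 0.25, adjusted p = 0.00364 in limma), and 4.29-fold in labelled cells, from 110 and 103 to 468 and 451 (2.10, SE 0.25, adjusted p = 0.00069 in limma). Ssr2, a subunit of the translocon-associated TRAP complex, rose 2.03-fold in WT (log2 fold change 1.02, SE 0.24, adjusted p = 0.0135 in limma) and 3.38-fold in labelled cells (1.76, SE 0.24, adjusted p = 0.00115 in limma). The other 2 translocon genes, Sec61a1 and Ssr1, were called in neither genotype. Ssr2 in WT lost its call without either stimulated WT library or unstimulated WT replicate 4.

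The remaining 10 genes that rose in labelled Stim1/2-deficient cells were Hyou1, Canx, Pdia3, Pdia4, Pdia6, Dnajb11, Manf, Creld2, Xbp1 and Derl2. With libraries rescaled to equal totals, 7 of these 10 were called higher in WT too, all but Canx, Pdia3 and Xbp1. In WT their log2 fold changes ran from -0.25 to 0.60 and in labelled cells from 0.62 to 1.28. Creld2, a secreted protein of the ER stress response, had 169 and 182 normalized counts at rest and 462 and 393 after stimulation in labelled cells (1.28, SE 0.24, adjusted p = 0.00511 in limma), and 300 and 227, then 387 and 386, in WT (0.56, adjusted p = 0.118 in limma). Pdia6 had 653 and 652, then 1447 and 1504, in labelled cells (1.18, SE 0.20, adjusted p = 0.00348 in limma), and 1170 and 861, then 1411 and 1197, in WT (0.37, adjusted p = 0.213 in limma). Stimulated levels of both genes in WT thus lay just below those of labelled cells, while the resting levels lay above. Hyou1 had 743 and 815, then 1503 and 1944, in labelled cells (1.13, SE 0.23, adjusted p = 0.00731 in limma). Dnajb11 had 1448 and 1425, then 2632 and 2472 (0.83, SE 0.18, adjusted p = 0.00905 in limma), and Manf 279 and 406, then 733 and 653 (1.04, SE 0.24, adjusted p = 0.0118 in limma). The groups of these 3 genes were well apart in labelled cells. Of the glycoprotein folding pair, Canx had 6457 and 5429, then 9550 and 8622 (0.62, SE 0.18, adjusted p = 0.0296 in limma), and Pdia3 4277 and 6206, then 7824 and 7997 (0.62, SE 0.20, adjusted p = 0.0428 in limma). Pdia4 had 1239 and 795, then 1780 and 1904 (0.89, SE 0.26, adjusted p = 0.0323 in limma). These 3 were nearest to the thresholds. Derl2 rose 2.25-fold in labelled cells (1.17, SE 0.19, adjusted p = 0.00235 in limma), and its WT value of 0.57 narrowly missed the threshold (adjusted p = 0.0504 in limma). Xbp1 had 948 and 2021, then 2610 and 3220, in labelled cells (1.07, SE 0.30, adjusted p = 0.0281 in limma), and 1895 and 1722, then 1748 and 2017, in WT (0.06, adjusted p = 0.912 in limma). The rise of Xbp1 was 0.52 and no longer called without unstimulated labelled replicate 1, the library with its lowest count and the highest levels of other cells' markers. The call of Pdia3 was also lost without that library, and Ern1 was added as lower. Over the 8 fits that each left out 1 library, Canx and Pdia3 lost their call in 7, Xbp1 in 6, Pdia4 in 5 and Manf in 1.

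**Figure D3:**
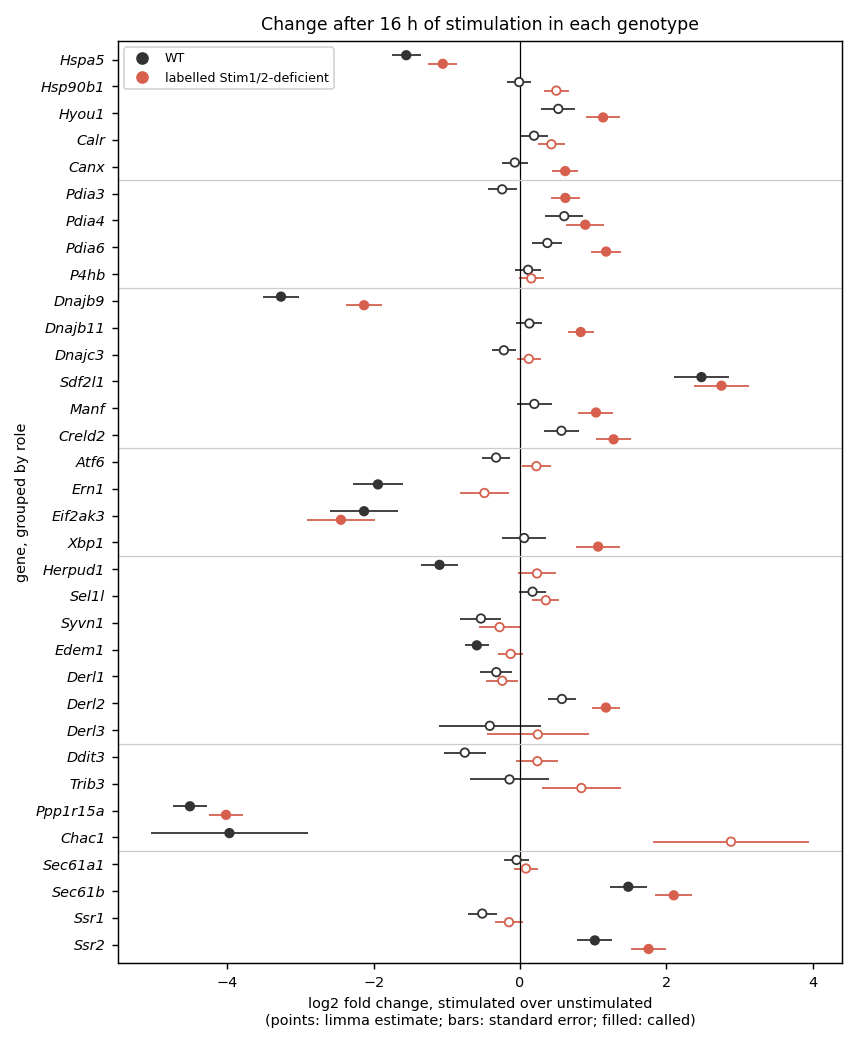
Change of each of the 34 genes after 16 h of stimulation, as the log2 fold change of stimulated over unstimulated libraries, in WT (black) and labelled Stim1/2-deficient cells (red). Points are limma estimates, bars are standard errors, and filled points were called. Ppp1r15a and Dnajb9 lie far to the left and Sdf2l1 far to the right in both genotypes, and 10 genes are filled in red alone among those to the right.

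Whether stimulation altered a gene differently in the 2 genotypes was tested by the interaction of genotype and stimulation. No member was called by limma, nor was any of the 15419 tested genes (0% in either direction). With edgeR 0 members were called too, whereas DESeq2 called 1, Chac1, as higher. Of all tested genes, edgeR called 0% in either direction, and DESeq2 0.22% higher and 0.084% lower. At an unadjusted p under 0.05 and more than 1.5-fold, 12 members were higher and 0 lower, against 4.57% and 3.52% of all tested genes. These were Canx, Pdia3, Pdia6, Dnajb9, Dnajb11, Manf, Ern1, Xbp1, Herpud1, Derl2, Ddit3 and Chac1. The interaction, positive where stimulation moved a gene further up in labelled cells, was above 0 in 33 of the 34 genes, against 53.4% of all tested genes, with a median of 0.61 against 0.05. Eif2ak3 was the exception at -0.32. Most lists of related genes leaned the same way, with their values given further below. The smallest limma adjusted p was 0.506, for Chac1, with an interaction of 6.85 (SE 1.52). In order of p, Herpud1 followed with 1.33 (SE 0.36), then Dnajb9 with 1.13 (SE 0.35), Pdia3 with 0.86 (SE 0.28) and Ern1 with 1.46 (SE 0.48), each at a limma adjusted p of 0.556. Without unstimulated labelled replicate 2, the interaction of Pdia3, Ern1 and Xbp1 was called. This contrast uses the same 8 libraries as the genotype and stimulation contrasts and is not separate evidence from them.

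**Figure D4:**
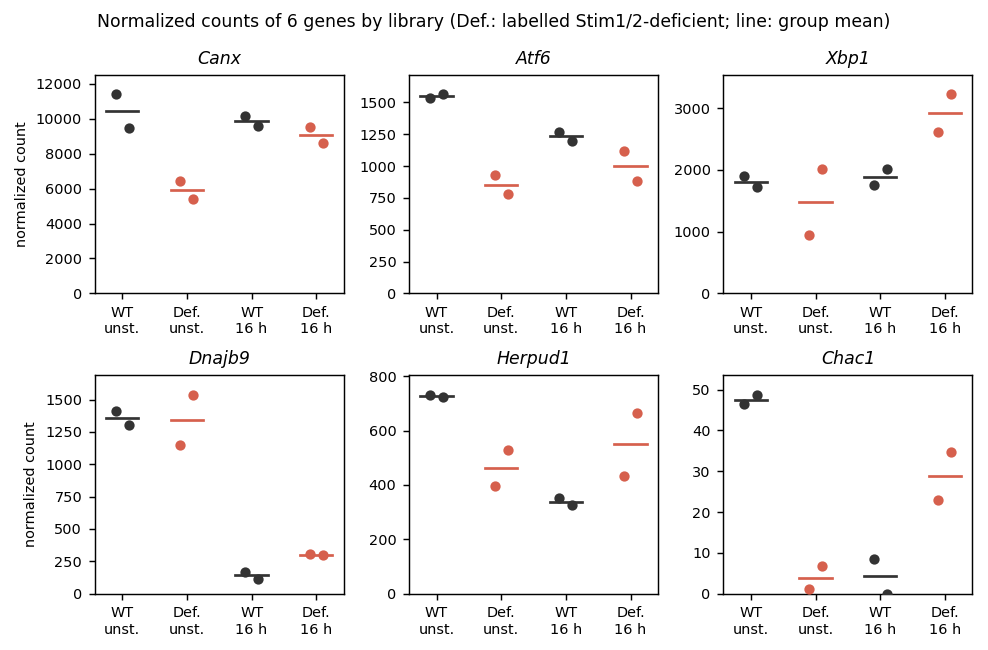
Normalized counts of Canx, Atf6, Xbp1, Dnajb9, Herpud1 and Chac1 in the 8 libraries, each panel with a linear axis from 0. Points are libraries and lines are group means, with WT in black and labelled Stim1/2-deficient cells in red. Canx and Atf6 are low in both unstimulated labelled libraries, the 2 unstimulated labelled libraries of Xbp1 lie apart at 948 and 2021, Dnajb9 is low in all 4 stimulated libraries, and Herpud1 and Chac1 lie below WT at rest and above WT after stimulation.

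Other genes of the same pathways, listed by function, were called lower in 0 to 2 genes a list at rest. Of all tested genes, 3.35% were called lower and 1.38% higher. The median log2 fold change at rest was -0.21 for other folding, -0.32 for other degradation and -0.33 for other translocon genes. It was -0.46 for oligosaccharyltransferase, -0.55 for integrated stress response and 0.10 for heat shock genes, against -0.01 over all tested genes. In unstimulated cells, 1 of 22 other ER folding and unfolded protein response genes was lower, Creb3l2, an ER-bound transcription factor (733.7 against 358.7 normalized counts on average, log2 fold change -1.03, adjusted p = 0.0369 in limma). None of 14 other ER-associated degradation genes and none of 9 oligosaccharyltransferase genes was called. Of 18 other genes of the translocon, the signal peptidase and the signal recognition particle, 2 signal peptidase subunits were lower, Spcs3 (-0.75, adjusted p = 0.0485 in limma) and Sec11c (-0.89, adjusted p = 0.0349 in limma). Of 17 integrated stress response genes, 15 were tested and 2 were lower. Asns, asparagine synthetase and a target of ATF4, had 173 and 204 normalized counts in WT against 62.9 and 29.4 (4.28-fold lower, log2 fold change -2.10, adjusted p = 0.0189 in limma). Eif2ak2, encoding the kinase PKR, had a log2 fold change of -0.91 (adjusted p = 0.0480 in limma). None of 11 tested cytosolic and mitochondrial heat shock genes, a separate folding system, was called. Both labelled libraries of Hspa1b were above WT, with 1838 and 636 against 271 and 363 normalized counts, without passing the test (log2 fold change 1.78, adjusted p = 0.115 in limma). No gene of these 6 lists was called higher in unstimulated labelled cells, and none was called in either direction after stimulation, both by limma.

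Called changes with stimulation went in both directions in some of these lists, and only up or only down in others. Of all tested genes, 13.1% fell and 10.2% rose in WT, and 12% fell and 13% rose in labelled cells. Of the 11 heat shock genes, 7 fell in both genotypes, among them Hspa1a, Hspa1b, Hsp90aa1 and Dnajb1, and 2 mitochondrial chaperones, Hspe1 and Hspd1, rose in both. Hspa1a and Hspa1b are near-identical copies whose reads may be split. Of the 9 oligosaccharyltransferase genes, which attach N-glycans in the ER, 2 rose in WT and 5 in labelled cells, with none lower. Of the 18 translocon, signal peptidase and signal recognition particle genes, 4 rose and 3 fell in WT, and 9 rose and 2 fell in labelled cells. Among the 22 other ER folding and unfolded protein response genes, 1 rose and 2 fell in WT, and 8 rose and 3 fell in labelled cells. The 14 other degradation genes held 3 that fell in both genotypes, Os9, Ube2j1 and Edem3, and none that rose. Of the integrated stress response genes, 4 fell in WT, among them Atf4 and Atf3, and in labelled cells 2 fell and 4 rose, Asns among the latter. No interaction was called in any of these lists. It was above 0 in 16 of 22 other folding, 13 of 14 other degradation and 16 of 18 other translocon genes. The same held for 6 of 9 oligosaccharyltransferase, 14 of 15 integrated stress response and 2 of 11 heat shock genes, against 53.4% of all tested genes. Medians in this order were 0.24, 0.47, 0.37, 0.46, 0.57 and -0.07, against 0.05 over all tested genes.

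The 9 genes with an ERSE in their promoter had a median log2 fold change by genotype of -0.48 in unstimulated cells, from -0.81 for Canx to 0.00 for Syvn1, and of 0.18 after stimulation. The 2 genes with ERSE-II, Dnajb11 and Herpud1, had -0.61 and -0.67 at rest and 0.09 and 0.66 after stimulation. For the 3 genes with CARE, Herpud1, Trib3 and Chac1, the values were -0.67, 0.36 and -3.61 at rest and 0.66, 1.34 and 3.24 after stimulation. These are descriptions of few genes and say nothing of the factors that bind.

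Of the 34 genes, 22 were called in at least 1 contrast, and 12 in none, namely Hsp90b1, Calr, P4hb, Dnajc3, Sel1l, Syvn1, Derl1, Derl3, Ddit3, Trib3, Sec61a1 and Ssr1. The share of all tested genes called in at least 1 contrast was not counted, so the 22 cannot be set against it. In the RefSeq annotation, 8 of the 34 genes overlap another protein-coding gene, Hspa5, Pdia3, Pdia6, Atf6, Syvn1, Derl2, Ddit3 and Ppp1r15a. Whether the counting used strand is not settled by the sources used here, so reads of these genes and of their neighbours may not have been separated.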

How the data were processed

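RNA of sorted Treg cells was sequenced, with 2 libraries for each of 4 groups taken from the labels. The deposited signal values hold the authors' reads per gene after scaling each library by its own size factor. They are called normalized counts here, and 100% of them fell on multiples of a single read within 0.006, from which the reads were recovered. The sources differ on upstream steps. The study's methods name an unstranded kit, Bowtie, assembly NCBIM37, removal of duplicates, HTSeq and DESeq2, whereas the submitters' processing notes name STAR 2.7, mm10, bcl2fastq 1.8.4 and DESeq2 and the labels a stranded kit. No coordinates were therefore tied to the counts. Removing duplicates, if done, would compress the counts of the most abundant genes.

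After adding 1 and taking log2, genes whose mean reached 10 normalized counts were fitted in R 4.3.3 with limma 3.58.1 (lmFit, then eBayes with its trend option), all groups together. The 2-sided p were adjusted by Benjamini-Hochberg over every tested gene of a contrast. A call needed an adjusted p under 0.05 together with a change beyond 1.5-fold. The methods describe each sample as a pool of several mice, so p-values measure the spread between 2 pools a group and not between single mice. Limits for a count of 0 use 3 reads and cover counting error only. All 34 members are named, with full statistics where called and for Hspa5, Hsp90b1, Calr, Xbp1, Ddit3 and Herpud1 in both genotype contrasts, and with levels or log2 fold changes otherwise. The members, the other gene lists and these rules were chosen with earlier results of these data known. Symbols Selk and Ufd1l were matched as Selenok and Ufd1. Alternatives were pseudocounts of 0.1 and 5, no minimum and a minimum of 100, equal totals, equal upper quartiles, edgeR 4.0.16 and DESeq2 1.42.0 on recovered reads, the 4 libraries of a contrast, a replicate block, other thresholds and each library left out. The fits were tested on simulated data.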

Additional observations from a re-analysis of the deposited data

Results flagged for a closer look

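In 9 of the 34 genes both labelled Stim1/2-deficient libraries were below both WT libraries at rest and above both after 16 h of stimulation. Opposite differences without overlap in the 2 states, in either order, were held by 26.5% of the members and 5.37% of all tested genes. The share of all tested genes in the order seen here was not counted. The interaction of genotype and stimulation (log2) was 0.86 for Pdia3, 0.80 for Pdia6, 0.84 for Manf, 0.71 for Creld2, 1.46 for Ern1, 1.33 for Herpud1, 0.46 for Edem1, 0.60 for Derl2 and 6.85 for Chac1. None of these passed the test of the difference itself, with limma adjusted p from 0.506 to 0.633. The 9 genes were picked by this pattern in the same libraries, so a positive interaction was set by the choice. The genes span the disulfide isomerases, secreted factors, a sensor, degradation and the CHOP branch. Summed markers of macrophages and B cells were higher in both unstimulated labelled libraries than in unstimulated WT libraries. Of the 7 tested plasma cell markers, 4 were higher in both and 1 was lower in both. The part of these cells in the pattern was not tested.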

How the results depend on the processing

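For genotype in unstimulated cells, the 2 members called lower became 4 with DESeq2 (Ern1 and Chac1 added), 1 with edgeR (Atf6 lost), 10 at an unadjusted p, and 0 with equal totals, with equal upper quartiles, with no minimum on the mean and with the 4 libraries of the contrast alone. With 1 library left out the count ran from 0 (without either stimulated WT library, for example) to 6 (without labelled replicate 2), and that of members called higher from 0 to 1 (Eif2ak3, without labelled replicate 1). The median of the members was -0.33 with equal totals, -0.29 with equal upper quartiles and -0.57 to -0.35 with 1 library left out, where the ends were set by unstimulated WT replicates 4 and 3. Calr turned positive, at 0.024 with DESeq2, 0.0066 with edgeR, 0.11 with equal totals and 0.15 with equal upper quartiles, and ran from -0.24 to 0.22 with 1 library left out. Xbp1 ran from -0.93 to 0.16, the ends set by labelled replicates 2 and 1. Over all tested genes, edgeR on the recovered reads called 2.29% lower and 0.85% higher in unstimulated cells, and DESeq2 5.25% and 3.31%.

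For genotype in stimulated cells, the 0 members called higher became 1 with DESeq2, 5 at an unadjusted p, and 0 to 1 with 1 library left out, namely Dnajb9 without either unstimulated labelled library and Ppp1r15a without stimulated labelled replicate 1. With 1 library left out, Hspa5 ran from -0.048 to 0.080, Hsp90b1 from -0.13 to 0.043 and Ddit3 from -0.015 to 0.76. For stimulation in WT cells, equal totals gave 13 members called higher and a median of 0.40, and with 1 library left out 3 to 9 were called lower, fewest without unstimulated WT replicate 4, with a median of -0.22 to -0.025. For stimulation in labelled cells, the 4 libraries of the contrast alone gave 7 called higher and lost the fall of Hspa5, 1 library left out gave 8 to 12, and the median was 0.78 with equal totals, 0.30 with equal upper quartiles and 0.39 to 0.54 with 1 library left out. For the interaction, DESeq2 called 1 member higher, an unadjusted p 12, and 1 library left out 0 to 3, with medians of 0.48 with equal totals, 0.45 with equal upper quartiles and 0.49 to 0.71. The cause of these shifts was not tested, except that fits to 4 libraries have fewer samples.

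With the replicate number as a block, possible for genotype in stimulated cells and stimulation in labelled cells, 0 members were called in the former and Chac1 was added as higher in the latter, which makes 14. Same-numbered libraries had correlated deviations of 0.17 and 0.26 over 2 pairs, and the labels tie the numbers to nothing. The other groups share fewer than 2 numbers. Single values were followed over the alternatives for 25 members. These were taken in contrasts that called them and, for Hspa5, Hsp90b1, Calr, Xbp1, Ddit3 and Herpud1, in both genotype contrasts. Of these values, 720 kept their direction and side of the threshold, 85 lost the call, 4 gained it and 11 changed sign. Other members are not in these counts. With equal totals, for example, 10 of 23 other members changed sign for stimulation in WT cells. Depth limited Chac1, Trib3 and Derl3, which had under 50 normalized counts in every library.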
